A study of Mus musculus with 20 samples.

Results

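The 10 genes described here encode enzymes of the route by which the liver makes fatty acids anew, or proteins linked to it: Mlxipl, Acly, Me1, Acaca, Acacb, Fasn, Elovl6, Scd1, Thrsp and Pnpla3. They were taken by their symbols in the array platform's probe table, which gave 14 of the 45281 probes on the array. A probe was kept when its detection p-value, the chance of such a signal from background alone, was under 0.05 on at least 5 of the 20 arrays. Of the 14 probes 11 passed, for 8 genes, among 18285 probes and 10362 genes that passed over the whole array. The probes of Acaca and Pnpla3 were detected on 0 of 20 arrays and the second probe of Acacb on 1, so these carry no comparison.

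Liver RNA of male C57BL/6 mice aged 14 weeks was measured on Illumina BeadChips, which read each gene by the brightness of short probes, in a series on a drug that blocks Toll-like receptors 7 and 9, which sense nucleic acids inside endosomes. The 4 groups of 5 arrays were treated ApoE-/-, untreated ApoE-/-, treated wild-type and untreated wild-type mice, where ApoE-/- mice lack apolipoprotein E, a carrier protein needed to clear remnant lipoproteins. Treated mice received the antagonist intraperitoneally at 15 mg/kg, 3 times a week between weeks 6 and 11 of age, and untreated mice received none, with no vehicle injection described. All 4 groups ate a high fat diet, with 21% fat and 0.15% cholesterol for ApoE-/- mice and 35% fat and 0.03% cholesterol for wild-type mice, so genotype and diet formula cannot be told apart. Livers were collected at week 14, after dosing had ended. The labels do not say that each array holds a separate animal, and p-values therefore reflect the scatter among arrays, part of which may be technical.

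De novo lipogenesis turns surplus carbohydrate into fat. Citrate leaves the mitochondrion and is split to acetyl-CoA, acetyl-CoA is carboxylated to malonyl-CoA, and fatty acid synthase joins these units into palmitate with NADPH as the reductant. Palmitate is then lengthened and desaturated for storage as triglyceride. In liver the genes are driven mainly by the SREBP transcription factor encoded by Srebf1, which answers to insulin, by ChREBP, the glucose-responsive factor encoded by Mlxipl, and by the liver X receptors, which sense oxysterols.

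The promoters of 4 genes whose levels changed are shown. They were chosen with these changes known, and any part of the motifs in the changes was not tested. Each is 1 window of 300 bases, 250 before and 50 after the annotated start, read 5′ to 3′ on the gene's strand from RefSeq for the mouse build GRCm38.p6. The windows lie at chr11:100527951-100528250 on the minus strand for Acly, chr9:86695865-86696164 on the minus strand for the first start of Me1, and chr3:129532136-129532435 on the plus strand for Elovl6. The first and second start of Mlxipl lie at chr5:135106641-135106940 and chr5:135089640-135089939, both on the plus strand. Capitals mark matches on either strand to CCAAT (the NF-Y box), CACGTG (an E-box), TCACNCCAC (a sterol regulatory element core), GGGCGG (a GC box) or the liver X receptor direct repeat with a 4-base spacer.
Acly: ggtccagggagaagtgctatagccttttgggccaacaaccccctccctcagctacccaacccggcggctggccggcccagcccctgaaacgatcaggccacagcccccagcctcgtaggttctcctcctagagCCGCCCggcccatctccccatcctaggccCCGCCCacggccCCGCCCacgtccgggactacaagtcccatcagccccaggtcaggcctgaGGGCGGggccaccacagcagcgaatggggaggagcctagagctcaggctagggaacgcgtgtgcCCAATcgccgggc
Me1, first start: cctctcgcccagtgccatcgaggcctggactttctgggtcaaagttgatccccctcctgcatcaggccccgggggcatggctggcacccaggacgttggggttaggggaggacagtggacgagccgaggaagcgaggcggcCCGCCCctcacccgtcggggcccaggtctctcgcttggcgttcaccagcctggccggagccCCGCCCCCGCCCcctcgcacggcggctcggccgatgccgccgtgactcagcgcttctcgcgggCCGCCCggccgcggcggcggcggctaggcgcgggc
Elovl6: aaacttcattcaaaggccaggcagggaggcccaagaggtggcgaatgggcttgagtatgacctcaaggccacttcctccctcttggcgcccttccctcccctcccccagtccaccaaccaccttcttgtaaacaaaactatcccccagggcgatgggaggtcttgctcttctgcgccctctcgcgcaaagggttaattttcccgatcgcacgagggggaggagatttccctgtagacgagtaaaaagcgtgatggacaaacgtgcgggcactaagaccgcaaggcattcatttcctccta
Mlxipl, first start: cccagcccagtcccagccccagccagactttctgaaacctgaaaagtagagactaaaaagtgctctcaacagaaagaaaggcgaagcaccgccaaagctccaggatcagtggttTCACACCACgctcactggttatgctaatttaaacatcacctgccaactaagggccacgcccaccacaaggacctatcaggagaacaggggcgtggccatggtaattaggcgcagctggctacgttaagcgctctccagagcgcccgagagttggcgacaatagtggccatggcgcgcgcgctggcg
Mlxipl, second start: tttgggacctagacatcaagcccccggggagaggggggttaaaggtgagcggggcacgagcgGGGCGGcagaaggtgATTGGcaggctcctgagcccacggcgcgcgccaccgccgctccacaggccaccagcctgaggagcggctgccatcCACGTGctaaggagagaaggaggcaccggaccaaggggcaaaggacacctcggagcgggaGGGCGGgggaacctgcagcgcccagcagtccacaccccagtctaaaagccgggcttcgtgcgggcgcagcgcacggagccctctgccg

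The promoter table held 11 windows for 9 of the 10 genes. Acly and the first start of Me1 each had 4 matches to GGGCGG, a motif found in 35.7% of all 32851 promoter windows, and none of these matches overlapped another motif. TCACNCCAC, found in 1.24% of all windows, had its match at the first start of Mlxipl, beginning at base -136. CACGTG, found in 7.15% of windows, had its match at the second start of Mlxipl, beginning at base -98. CCAAT, found in 37.4% of windows, had 3 matches in the Fasn window, of which 2 overlapped each other, 2 in the Thrsp window and 1 each in the windows of Acly, Acacb, Pnpla3 and the second starts of Me1 and Mlxipl. Further GGGCGG matches were 3 for Pnpla3 and 2 for the second start of Mlxipl. The Elovl6 and Acaca windows held no match to any of the 5 motifs, and the liver X receptor repeat, found in 0.0152% of windows, matched none of the 11. A match is a stretch of letters and does not show that a factor binds there.

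**Figure D1:**
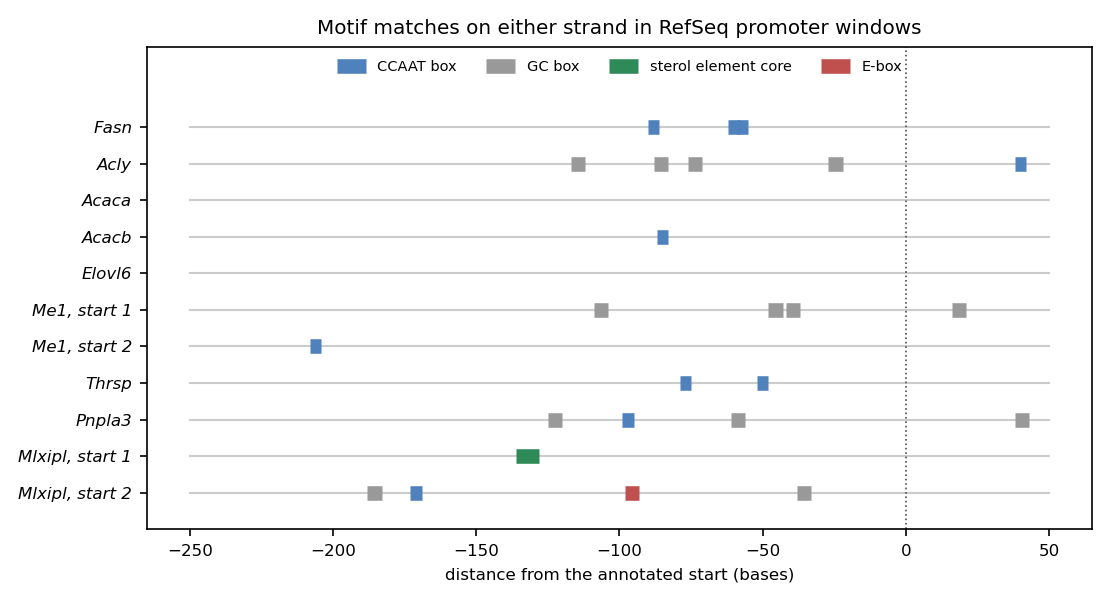
Matches to 4 motifs along the 11 promoter windows, with distance from the annotated start in bases on the horizontal axis and 1 line per window. Acly and the first start of Me1 each carry 4 GC boxes, while the Elovl6 and Acaca lines are empty.

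Signals below are normalised log2 intensities, on which 1 unit is a 2-fold step, and the levels of different probes are not comparable with each other. Apoe read between 5.26 and 6.88 on the ApoE-/- arrays and between 13.60 and 14.61 on the wild-type arrays, so every array matched its labelled genotype. Summed linear signals of 5 hepatocyte markers, carried mainly by Ttr and Ahsg, lay between 62511 and 83446 on all arrays. Among these markers Alb was not steady, at 8.90 to 11.03 on replicates 1 to 3 and 7.36 to 8.80 on replicates 4 and 5. None of 6 adipocyte markers passed the detection rule. Summed signals of 6 macrophage markers differed by group, with 8605 to 12210 in treated ApoE-/-, 6916 to 8716 in untreated ApoE-/-, 6595 to 8501 in treated wild-type and 2004 to 3144 in untreated wild-type livers. Fewer cells of a type and less RNA per cell cannot be told apart in whole liver. The column headers take 2 forms, 1 for replicates 1 to 3 (set 1, 12 arrays) and 1 for replicates 4 and 5 (set 2, 8 arrays). Values within each set stand beside the pooled ones of the leading probes of the 8 measured genes. Changes of other pathway genes and of markers are given pooled over both sets only. Set 2 headers name a slide, and the untreated ApoE-/- arrays of set 2 lie on a slide apart from all other set 2 arrays. Set 2 values of any comparison that uses untreated ApoE-/- arrays therefore cannot be told apart from a slide difference.

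The first question was how the antagonist changed lipogenic genes. In ApoE-/- livers Acly rose, Me1 and Elovl6 fell, and the other 5 of 8 measured genes did not pass the test, which was limma's moderated test with Benjamini-Hochberg adjustment over all 18285 probes at 0.05. In the whole array 14.2% of probes were called higher and 14.9% lower in this comparison. In wild-type livers Acly rose, Me1, Elovl6, Scd1 and Mlxipl fell, and 3 genes did not pass. There 18.9% of all probes were called higher and 18.4% lower, so calls were common across the array. The median change of the 8 genes, each by its leading probe, was 0.04 in ApoE-/- and -0.75 in wild-type livers. Beside these stood 0.007 and -0.0006 over the leading probes of the whole array, and -0.02 and -0.03 over all probes. By their leading probes, Acly was called higher and Me1 and Elovl6 lower in both genotypes. The second Elovl6 probe had no call in either genotype, nor did Fasn itself.

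**Figure D2:**
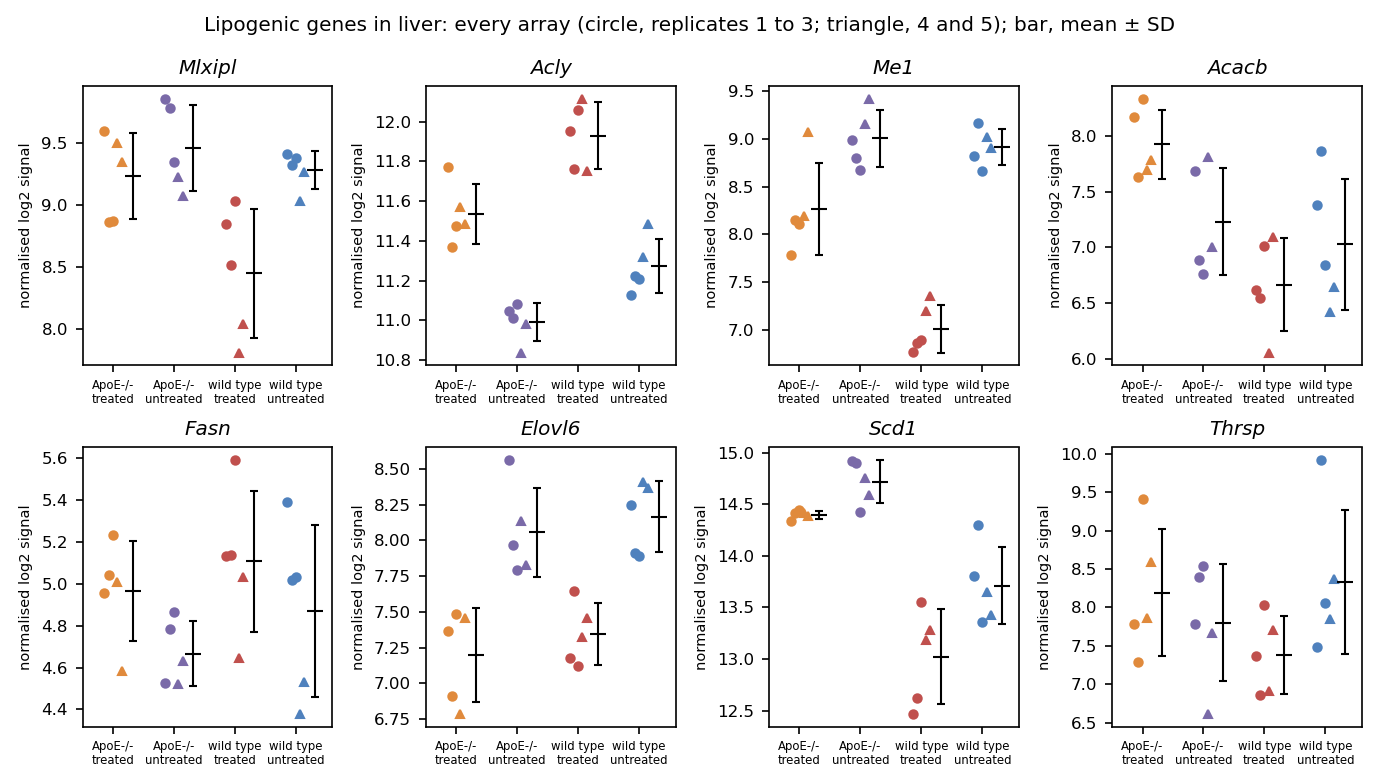
Normalised log2 signal of the 8 measured genes on every array (circles, replicates 1 to 3; triangles, replicates 4 and 5), with the mean and SD of each group of 5 beside the points; each panel has its own vertical scale. Acly is higher and Elovl6 lower on all 5 treated arrays than on all 5 untreated ones in both genotypes.

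Acly, ATP citrate lyase, which splits exported citrate into the acetyl-CoA that feeds the pathway, read 11.77, 11.37, 11.47, 11.57 and 11.49 in treated ApoE-/- livers, against 11.05, 11.01, 11.08, 10.84 and 10.98 in untreated ones. It read 11.96, 11.76, 12.06, 12.12 and 11.75 in treated wild-type livers, against 11.13, 11.22, 11.21, 11.32 and 11.48 in untreated ones. Treated and untreated arrays did not overlap in either genotype, a pattern that 9.19% of all probes showed in the higher direction in ApoE-/- and 14.4% in wild-type livers. The log2 change was 0.54 ± 0.10 (SE; limma adjusted p = 4.19e-04), or 1.46-fold, in ApoE-/- livers. In wild-type livers it was 0.66 ± 0.10 (limma adjusted p = 3.22e-05), or 1.58-fold. Within header sets 1 and 2 the change was 0.49 and 0.62 in ApoE-/-, and 0.74 and 0.53 in wild-type livers. Set 2 alone, with 2 arrays a group, did not reach the threshold in ApoE-/- (adjusted p = 0.0584).

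Me1, cytosolic malic enzyme, which makes NADPH for the synthase, had the largest change among the 8 genes in wild-type livers. Its signals were 7.79, 8.15, 8.11, 8.20 and 9.07 in treated ApoE-/- livers, against 8.99, 8.80, 8.67, 9.15 and 9.42 in untreated ones. In treated wild-type livers they were 6.76, 6.86, 6.89, 7.20 and 7.35, against 8.82, 9.17, 8.67, 9.02 and 8.90 in untreated ones. All treated wild-type arrays lay more than 1 unit below all untreated ones, while in ApoE-/- mice replicate 5 of the treated group lay among the untreated arrays. Me1 fell by 0.74 ± 0.19 on the log2 scale in ApoE-/- livers (limma adjusted p = 0.00573), a 1.67-fold lower level. In wild-type livers it fell by 1.90 ± 0.19 (limma adjusted p = 1.28e-07), a 3.74-fold lower level. The within-set changes were -0.80 and -0.65 in ApoE-/- and -2.05 and -1.69 in wild-type livers, with an adjusted p of 0.162 for set 2 alone in ApoE-/-. The window at the first start of Me1 holds 4 GC boxes, as the Acly window does, while that at its second start holds none. Which start is used in these livers, and any part of the motifs in the changes, was not tested.

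Elovl6, the elongase that lengthens palmitate to stearate, fell in both genotypes. Its leading probe, the brighter of a pair, read 7.36, 6.91, 7.48, 6.78 and 7.45 in treated ApoE-/- livers, against 8.56, 7.97, 7.79, 8.13 and 7.83 in untreated ones. In treated wild-type livers it read 7.17, 7.65, 7.12, 7.32 and 7.46, against 8.25, 7.91, 7.89, 8.41 and 8.37 in untreated ones. The groups did not overlap in either genotype, a pattern that 8.9% of all probes showed in the lower direction in ApoE-/- and 12.8% in wild-type livers. Elovl6 fell by 0.86 ± 0.17 in ApoE-/- livers (limma adjusted p = 5.96e-04), or 1.81-fold, and by 0.82 ± 0.17 in wild-type livers (limma adjusted p = 5.97e-04), or 1.77-fold. Scaling the arrays to equal medians in place of quantiles moved the median of all probes by 0.25 in wild-type livers and left an Elovl6 change of -0.44 there (limma adjusted p = 0.0706). Within sets 1 and 2 the change was -0.86 and -0.86 in ApoE-/- and -0.70 and -1.0 in wild-type livers, with an adjusted p of 0.056 for set 2 alone in ApoE-/-. The dimmer second probe, detected on 16 of 20 arrays, changed by 0.03 in ApoE-/- and -0.50 in wild-type livers (limma adjusted p = 0.928 and 0.0502), so the probes disagreed in ApoE-/-. Without treated or untreated wild-type replicate 3 it passed in wild-type livers, at -0.60 and -0.68 (limma adjusted p = 0.0257 and 0.0056).

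Scd1, stearoyl-CoA desaturase, which makes oleate from stearate, was among the brightest probes, at rank 28 to 424 of 45281 on the arrays. It read 14.34, 14.42, 14.44, 14.42 and 14.39 in treated ApoE-/- livers, against 14.92, 14.90, 14.43, 14.76 and 14.59 in untreated ones. In treated wild-type livers it read 12.47, 12.62, 13.56, 13.19 and 13.28, against 13.80, 14.30, 13.36, 13.65 and 13.43 in untreated ones. In each genotype 4 treated arrays lay below all untreated ones and replicate 3 overlapped them. Scd1 fell by 0.69 ± 0.19 in wild-type livers (limma adjusted p = 0.00627), or 1.61-fold. In ApoE-/- livers the change was -0.32 ± 0.19 (95% interval -0.71 to 0.07; limma adjusted p = 0.223), with no call, and -0.35 and -0.27 within sets 1 and 2. In wild-type livers the change was -0.94 within set 1 and -0.30 within set 2 (adjusted p = 0.0221 and 0.16), the call being lost in set 2 alone.

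Mlxipl, which encodes ChREBP, read 9.60, 8.86, 8.87, 9.51 and 9.35 by its leading probe in treated ApoE-/- livers, against 9.86, 9.79, 9.35, 9.23 and 9.07 in untreated ones. It read 8.85, 8.51, 9.03, 7.81 and 8.04 in treated wild-type livers, against 9.42, 9.32, 9.38, 9.03 and 9.27 in untreated ones. Replicate 3 of the treated wild-type group equalled the lowest untreated array, and the other 4 lay below all of those. Mlxipl fell by 0.84 ± 0.21 in wild-type livers (limma adjusted p = 0.0039), and by 0.89 ± 0.22 on the second probe (limma adjusted p = 0.00254), whose groups did not overlap. In ApoE-/- livers the changes were -0.22 ± 0.21 and -0.55 ± 0.22 (limma adjusted p = 0.49 and 0.0599), the second passing without treated ApoE-/- replicate 1 (-0.68, limma adjusted p = 0.0263). The pair of probes followed each other from array to array, with a Pearson correlation of 0.89 between their deviations from the group means over 20 arrays. Within set 1 the wild-type change was -0.58 and within set 2 -1.23 (adjusted p = 0.0553 and 0.00145). The leading probe in ApoE-/- livers was at -0.55 in set 1 and 0.28 in set 2, opposite in sign with no call in either. Among the windows printed above, the sterol element core and the E-box were matched in those of Mlxipl.

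Acacb, acetyl-CoA carboxylase beta, makes malonyl-CoA at the mitochondrial surface, where it restrains fatty acid import for oxidation. The signals were 8.16, 7.63, 8.33, 7.70 and 7.78 in treated ApoE-/- livers, against 7.69, 6.89, 6.76, 7.81 and 7.01 in untreated ones. In treated wild-type livers they were 6.62, 6.55, 7.01, 6.06 and 7.10, against 7.38, 7.87, 6.84, 6.42 and 6.64 in untreated ones. Treated ApoE-/- arrays tended high and the wild-type groups overlapped broadly. The change was 0.69 ± 0.26 in ApoE-/- (95% interval 0.14 to 1.24; limma adjusted p = 0.0544) and -0.36 ± 0.26 in wild-type livers (limma adjusted p = 0.309). The ApoE-/- change lay just outside the threshold and was past it under 10 of 22 other settings, among them set 1 alone (0.93, adjusted p = 0.0304). Leaving out untreated ApoE-/- replicate 1 or replicate 4 gave 0.80 and 0.84 (limma adjusted p = 0.0358 and 0.0268), and set 2 alone gave 0.33. The uncalled wild-type change was -0.64 in set 1 and 0.05 in set 2, and scaling to equal medians turned it to 0.08. For Acaca, the cytosolic carboxylase that supplies the synthase, the probe stayed at background, between 4.19 and 4.42 on all arrays.

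Fasn, fatty acid synthase, was read by 1 dim probe, detected on 4 of 5 treated and 1 of 5 untreated ApoE-/- arrays and on 4 of 5 treated and 3 of 5 untreated wild-type arrays. Its signals were 4.96, 5.04, 5.23, 5.01 and 4.59 in treated ApoE-/- livers, against 4.53, 4.79, 4.87, 4.52 and 4.63 in untreated ones. In treated wild-type livers they were 5.13, 5.14, 5.59, 4.64 and 5.03, against 5.39, 5.02, 5.03, 4.38 and 4.53 in untreated ones. The probe sits near background, and the groups overlapped. The changes were 0.30 ± 0.18 in ApoE-/- (95% interval -0.08 to 0.67; limma adjusted p = 0.237) and 0.24 ± 0.18 in wild-type livers (95% interval -0.14 to 0.61; limma adjusted p = 0.333). Within sets 1 and 2 they were 0.35 and 0.22 in ApoE-/- and 0.14 and 0.38 in wild-type livers. A probe this near background has little room to show a fall on this scale.

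Thrsp encodes Spot 14, a thyroid hormone-responsive protein that promotes lipogenesis, and it varied widely within groups. It read 7.79, 7.29, 9.41, 7.87 and 8.59 in treated ApoE-/- livers, against 7.79, 8.40, 8.54, 6.61 and 7.66 in untreated ones. In treated wild-type livers it read 7.37, 6.85, 8.03, 6.92 and 7.71, against 7.48, 9.92, 8.05, 7.85 and 8.36 in untreated ones. The SD reached 0.94 in untreated wild-type livers, where replicate 2 stood highest, and all groups overlapped. The changes were 0.39 ± 0.44 in ApoE-/- (limma adjusted p = 0.563) and -0.96 ± 0.44 in wild-type livers (limma adjusted p = 0.0934). With single arrays left out they ran between 0.08 and 0.61 in ApoE-/- and between -1.17 and -0.56 in wild-type livers. Within sets 1 and 2 they were -0.08 and 1.09 in ApoE-/- and -1.07 and -0.79 in wild-type livers. With slide as a block the ApoE-/- change of Thrsp was 0.002. Its second probe, detected on 6 of 20 arrays, changed by -0.22 and 0.09, with no call. The probe of Pnpla3, a lipid droplet lipase, stayed at background, between 4.25 and 4.50.

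**Figure D3:**
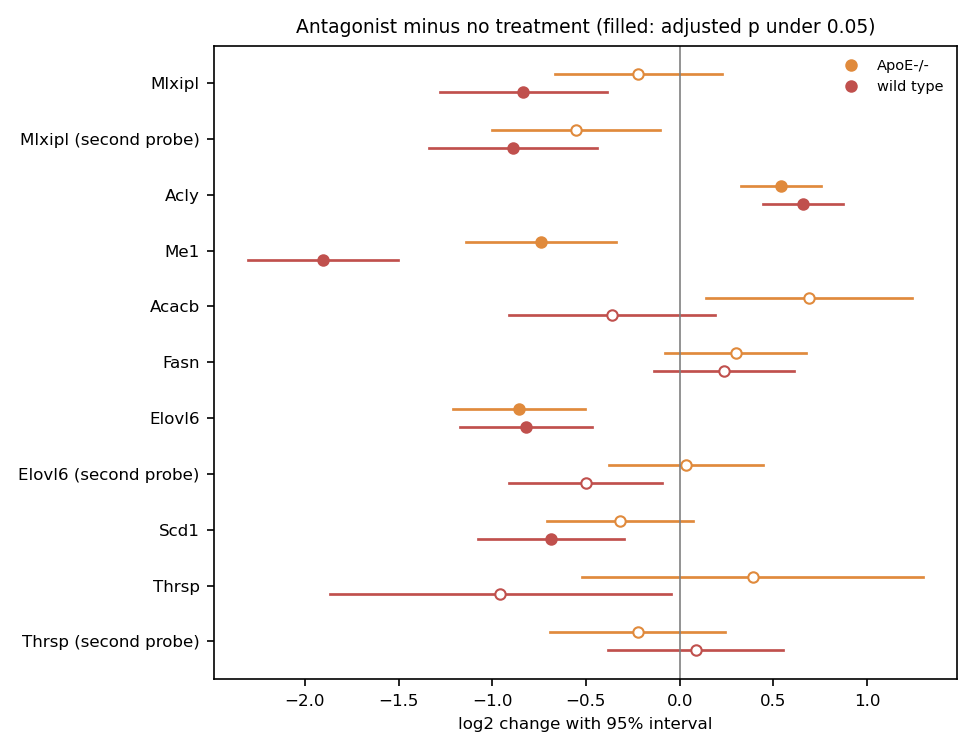
Log2 change with antagonist, treated minus untreated, for the 11 measured probes, with 95% intervals from limma (orange, ApoE-/-; red, wild type); filled points passed an adjusted p of 0.05. Acly lies right of 0 and Me1 and the leading Elovl6 probe left of it in both genotypes, while the second Elovl6 probe sits at 0.03 in ApoE-/- livers.

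The second question was whether the antagonist changes differed between genotypes. Of the 8 genes Me1 differed, by 1.16 ± 0.27 on the log2 scale, ApoE-/- minus wild type (95% interval 0.60 to 1.73; limma adjusted p = 0.0253), its fall being smaller in ApoE-/- livers. Over the whole array 0.76% of probes were called higher and 1.57% lower in this difference. The call was lost under equal medians (0.91, adjusted p = 0.0701) and without the detection filter (adjusted p = 0.0544). Without treated wild-type replicate 2, untreated ApoE-/- replicate 2 or untreated ApoE-/- replicate 3 the difference was 1.12, 1.11 and 1.08 (limma adjusted p = 0.0516, 0.0505 and 0.0517). It was 1.25 within set 1 and 1.03 within set 2 (adjusted p = 0.0172 and 0.204). Acacb differed by 1.05 ± 0.37, Thrsp by 1.35 ± 0.62 and Mlxipl by 0.61 ± 0.30, none with a call (limma adjusted p = 0.164, 0.317 and 0.364). For Mlxipl this was 0.02 in set 1 and 1.5 in set 2, where it passed (limma adjusted p = 0.987 and 0.0246). The set 2 value cannot be told apart from a slide difference. With slide as a block in the fit of all arrays, the pooled Mlxipl difference of 0.61 became 0.51 (limma adjusted p = 0.452). That block also absorbs the set 2 untreated ApoE-/- arrays, whose slide holds no other arrays. Acacb was at 1.57 and 0.29 within the sets, and Thrsp at 0.99 and 1.89. For Acly and Elovl6 the differences were -0.12 ± 0.14 (95% interval -0.42 to 0.19) and -0.04 ± 0.24 (95% interval -0.54 to 0.46), with signs that differed between the sets (-0.25 and 0.09 for Acly, -0.15 and 0.14 for Elovl6). Fasn differed by 0.06 ± 0.26, at 0.21 and -0.16 within the sets. For Scd1, called in wild-type livers, the difference was 0.37 ± 0.27 (limma adjusted p = 0.596), so its changes were not shown to differ; within the sets it was 0.59 and 0.03.

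The third question was how the genotypes differed at each treatment. These comparisons share arrays with those above and are not independent of them. In untreated livers Scd1 was higher in ApoE-/- mice by 1.01 ± 0.19 (limma adjusted p = 0.00173), or 2.01-fold, and its groups did not overlap. The other 7 genes had no call, while 3.41% of all probes were called higher and 1.25% lower. Groups that do not overlap made up 3.91% of probes in the higher and 2.05% in the lower direction, and Acly was also of this kind, with ApoE-/- below wild type by 0.28 ± 0.10 and no call (limma adjusted p = 0.149). Within the sets Acly was at -0.14 and -0.49. Me1 and Elovl6 were at 0.09 ± 0.19 and -0.11 ± 0.17, with -0.07 and 0.33 within the sets for Me1 and 0.09 and -0.41 for Elovl6. Fasn was at -0.20 ± 0.18, with -0.42 and 0.12 within the sets. Acacb was at 0.20 ± 0.26, with -0.25 and 0.88 within the sets. Mlxipl was at 0.17 ± 0.21, with 0.29 and 0.0008 within the sets, and Thrsp at -0.53 ± 0.44, with -0.24 and -0.97. The Scd1 difference was 0.93 within set 1 and 1.13 within set 2 (adjusted p = 0.0944 and 0.017). Markers of macrophages were also higher in untreated ApoE-/- livers, all 6 of 6 measured, with Lyz2 higher by 2.52, as were 3 of 3 endothelial and 2 of 5 stellate cell markers. The part of these cell types in the Scd1 difference was not tested.

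In treated livers 5 of 8 genes differed. Scd1 was higher in ApoE-/- mice by 1.38 ± 0.19 (limma adjusted p = 1.25e-04), Me1 by 1.25 ± 0.19 (limma adjusted p = 4.70e-04) and Acacb by 1.25 ± 0.26 (limma adjusted p = 0.00794), each with no overlap between groups. For these the folds were 2.60, 2.38 and 2.39. Mlxipl was higher by 0.79 ± 0.21 (limma adjusted p = 0.0375) and Acly lower by 0.40 ± 0.10 (limma adjusted p = 0.0293). Over the whole array 2.56% of probes were called higher and 1.84% lower, and 2.17% and 2.02% did not overlap in these directions. The second Mlxipl probe had no call, at 0.54 ± 0.22 (limma adjusted p = 0.184), but passed in set 2 alone (1.11, limma adjusted p = 0.0138). Mlxipl was 0.31 within set 1 and 1.5 within set 2 (adjusted p = 0.589 and 0.00339). Its call was lost without treated wild-type replicate 2, 4 or 5 or treated ApoE-/- replicate 1, 4 or 5, with a value of 0.63 and an adjusted p of 0.118 at the weakest. It was also lost without the detection filter and with the groups compared alone (limma adjusted p = 0.0832 and 0.107). Acly was -0.39 and -0.41 within the sets (adjusted p = 0.184 and 0.226). Its call was lost without treated wild-type replicate 1, 3 or 4 or treated ApoE-/- replicate 2, 3, 4 or 5, with a value of -0.35 and an adjusted p of 0.0867 at the weakest. Within sets 1 and 2 Scd1 was 1.52 and 1.17, Me1 1.18 and 1.36, and Acacb 1.32 and 1.16, the last with an adjusted p of 0.119 in set 2. Fasn, Elovl6 and Thrsp had no call, at -0.14 ± 0.18, -0.15 ± 0.17 and 0.81 ± 0.44. Within sets 1 and 2 Fasn was at -0.21 and -0.04, Elovl6 at -0.06 and -0.27, and Thrsp at 0.75 and 0.92. Macrophage markers were higher in treated ApoE-/- livers for 4 of 6 and T cell markers for 2 of 2, and the part of these cells in the differences was not tested.

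**Figure D4:**
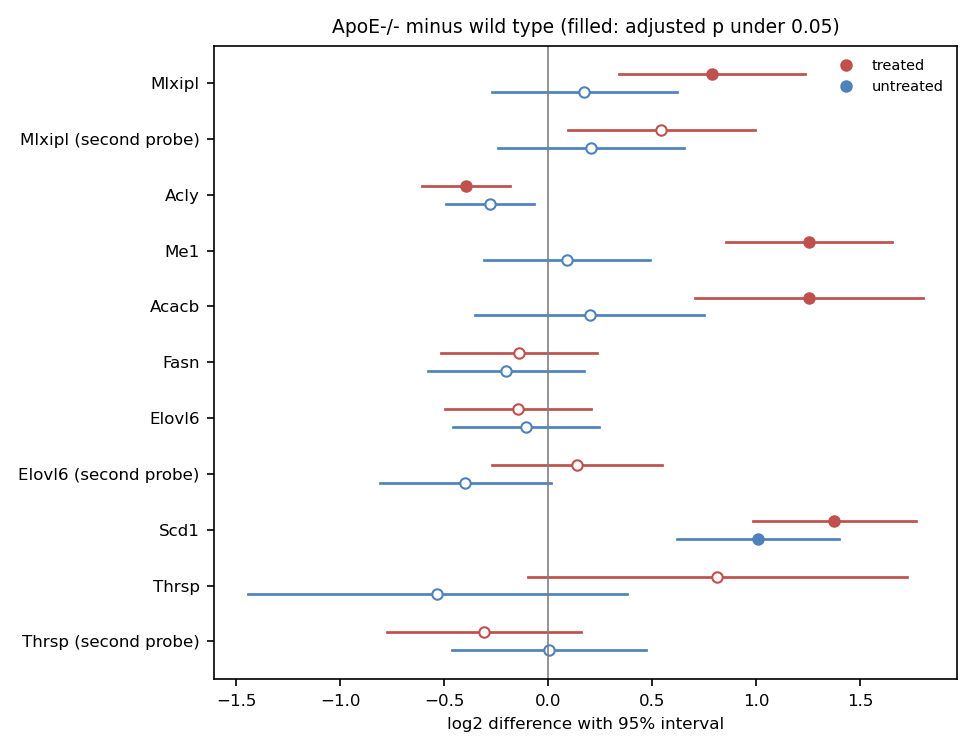
Log2 difference between genotypes, ApoE-/- minus wild type, for the 11 measured probes, with 95% intervals from limma (red, treated livers; blue, untreated livers); filled points passed an adjusted p of 0.05. Scd1 lies right of 0 at both treatments, and Me1, Acacb and the leading Mlxipl probe are filled in treated livers.

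No pair of the 8 genes was shown to vary together from array to array within the groups. Over 28 pairs of leading probes, Pearson correlations of the deviations from the group means ran between -0.49 and 0.53 over 20 arrays, and no pair passed adjustment over the 28 in a permutation test (smallest adjusted p = 0.431 for Pearson and 0.405 for Spearman). Fasn and Me1 had r = -0.49 and rho = -0.56 (permutation p = 0.0208 and 0.0145), and r = -0.53 without the 2 arrays farthest from the median of Fasn. From deviations from the means of group and set, r was -0.07 within set 1 and -0.53 within set 2, over 12 and 8 arrays. Set 2 has 2 arrays a group, whose deviations mirror each other, so its 8 points hold fewer independent values. Acacb and Scd1 had r = 0.53 and rho = 0.43 (permutation p = 0.0427 and 0.0958), and r = 0.40 without the 2 farthest arrays. Within the sets their r was 0.69 and 0.46, with the same limit for set 2.

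Other genes of the pathway, 29 in the list, were measured for 24. In ApoE-/- livers 6 rose and 6 fell with antagonist, and in wild-type livers 7 rose and 11 fell, against the shares of all probes given above. Their median change was -0.18 in ApoE-/- and -0.25 in wild-type livers. None of the 24 had a called difference between genotypes in its antagonist change, where 0.76% of all probes were called higher and 1.57% lower. With so few calls over the array, the lack of one among 24 genes says little about this list.

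Among the regulators, Insig1, an SREBP target whose product holds the SREBP complex in the endoplasmic reticulum, read 10.27, 10.63, 10.92, 11.17 and 11.18 in treated ApoE-/- livers, against 9.05, 9.39, 9.09, 9.56 and 9.96 in untreated ones. It read 11.16, 11.54, 11.57, 11.67 and 11.29 in treated wild-type livers, against 10.49, 10.49, 11.04, 11.00 and 10.81 in untreated ones. No treated array overlapped the untreated ones of its genotype. Insig1 rose by 1.42 in ApoE-/- (limma adjusted p = 1.29e-05) and by 0.68 in wild-type livers (limma adjusted p = 0.00708). Nr1h3, which encodes liver X receptor alpha, rose by 0.48 and 0.74 in ApoE-/- and wild-type livers (limma adjusted p = 0.00319 and 3.45e-05). Mid1ip1, a relative of Thrsp that promotes polymerisation of the cytosolic carboxylase, rose by 0.83 and 1.33 (limma adjusted p = 0.00702 and 6.94e-05). Usf2, an E-box-binding factor, fell by 0.61 and 0.78, while its partner Usf1 rose by 0.56 in wild-type livers and had no call in ApoE-/- livers. Srebf1 had no call, at -0.38 in ApoE-/- and -0.23 in wild-type livers (limma adjusted p = 0.237 and 0.46), and neither did Mlx, the obligate partner of ChREBP. Scap and Insig2 fell by 0.46 and 0.79 in wild-type livers.

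Of the supply genes, Pklr, liver pyruvate kinase and a ChREBP target, fell by 0.80 in wild-type livers (limma adjusted p = 0.0165) and was at -0.53 in ApoE-/- livers (limma adjusted p = 0.123). Idh1, cytosolic isocitrate dehydrogenase and another NADPH source, fell by 0.35 in ApoE-/- and 0.45 in wild-type livers. Acss2, which makes acetyl-CoA from acetate, rose by 0.46 in wild-type livers. On the malonyl-CoA side, Mlycd, which breaks malonyl-CoA down, fell by 0.55 and 0.52 in ApoE-/- and wild-type livers. Prkaa2, a catalytic subunit of the AMP-activated kinase that inhibits the carboxylases, fell by 0.61 and 0.85, and its regulatory subunit Prkab1 rose by 0.41 and 0.46. The catalytic subunit Prkaa1 had no call.

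Among genes that use the fatty acids, Lpin1, a phosphatidate phosphatase of triglyceride synthesis, read 9.29, 9.75, 9.63, 11.03 and 10.44 in treated ApoE-/- livers, against 6.6, 7.33, 9.12, 6.91 and 8.06 in untreated ones. It rose by 2.42 there (limma adjusted p = 6.42e-04) with no overlap, and by 1.47 in wild-type livers (limma adjusted p = 0.0199) with overlap. Gpam, the mitochondrial acyltransferase that starts glycerolipid synthesis, fell by 0.70 and 0.79 in ApoE-/- and wild-type livers, and Dgat2, which completes triglyceride, fell by 0.49 and 0.26. Of the polyunsaturated fatty acid genes, Fads2 and Elovl5 fell by 1.07 and 0.59 in wild-type livers, where Fads1 had no call at -0.14. In ApoE-/- livers Fads1 rose by 0.46, while Fads2 and Elovl5 had no call, at -0.31 and -0.18.

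**Figure D5:**
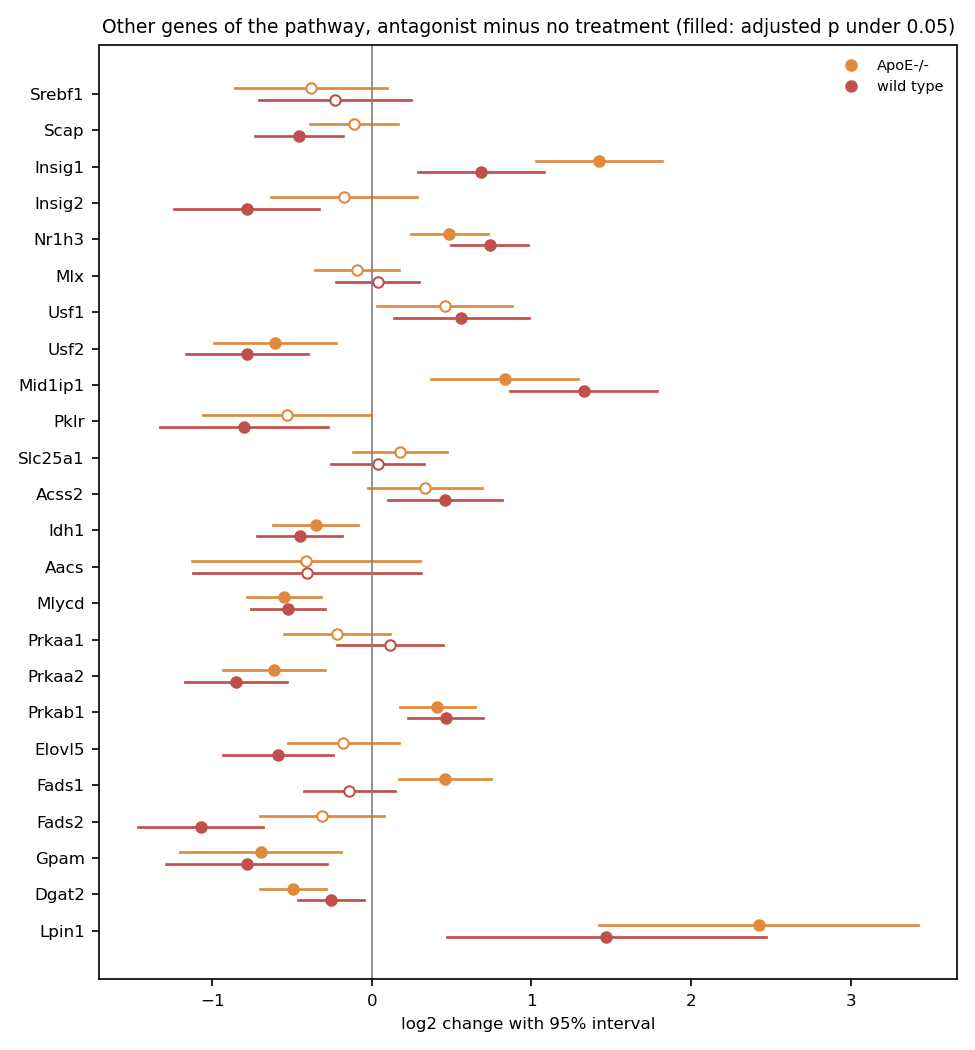
Log2 change with antagonist, treated minus untreated, for 24 further genes of the pathway, with 95% intervals from limma (orange, ApoE-/-; red, wild type); filled points passed an adjusted p of 0.05. Insig1, Nr1h3, Mid1ip1, Prkab1 and Lpin1 lie right of 0 and filled in both genotypes, and Usf2, Idh1, Mlycd, Prkaa2, Gpam and Dgat2 left of it.

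Between genotypes, 2 of the 24 had a call in untreated livers, Insig1 at -1.36 and Fads1 at -0.53, both lower in ApoE-/- mice, where 3.41% of all probes were called higher and 1.25% lower. In treated livers, with 2.56% and 1.84% called, Insig2 was higher by 0.93 in ApoE-/- mice, and Mid1ip1, Acss2 and Dgat2 were at -0.84, -0.68 and -0.38, lower in ApoE-/- mice.

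Markers of other cell types changed with treatment as well. Over the whole array 14.2% of probes were called higher in ApoE-/- and 18.9% in wild-type livers. Of the macrophage list 3 of 6 measured genes rose in ApoE-/- and 4 of 6 in wild-type livers, with C1qb higher by 1.48 and 2.90. Clec4f, at -0.07 and -0.26, and Vsig4, at -0.41 and 0.02, had no call in either genotype. Lyz2 was at -0.01 in ApoE-/- livers and rose by 1.48 in wild-type livers. Endothelial markers rose for 1 of 3 and 3 of 3, stellate cell markers for 1 of 5 and 2 of 5, and both measured T cell markers rose in both genotypes. Of the hepatocyte list 1 of 5, Cps1, rose in each genotype, by 0.51 and 0.68. Of the 6 adipocyte markers, Adipoq, Lep and Plin1 were detected on at most 2 of 20 arrays, Retn and Fabp4 on 0, and Cfd had no named probe. The part of these cell types in the lipogenic changes was not tested.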

How the data were processed

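Groups were taken from the labels, 4 groups of 5 arrays. The authors' deposited non-normalized table holds a linear signal intensity for each of 45281 probes on each array, without background subtraction or quantile normalization, as the values themselves show, and a detection p-value per probe and array that the authors deposited with it. Its arrays had nevertheless been scaled before deposit: mean intensities were equal within each of 4 sets formed by genotype and header form, at 341.052 and 358.13 for ApoE-/- and 326.995 and 399.382 for wild-type arrays of sets 1 and 2, by a step not described in the labels. The submitters' processing notes name GenomeStudio and BeadStudio. The deposited series matrix, with processed intensity values that follow the same signals in rank on every array, served as an alternative, though the sources used here do not describe its normalization.

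The neqc function of limma 3.58.1 (R 4.3.3) corrected background by normexp, taking the negative controls' mean and spread from the detection p-values, then applied quantile normalization with an offset of 16. The detection filter kept 18285 probes. Linear models with 4 group means gave 5 contrasts, with Benjamini-Hochberg adjusted p under 0.05 over all probes as the threshold. A gene was counted by its probe with the highest mean. Symbols came from the platform's probe table, of whose probes 34885 had 1 symbol, 18 several and 10378 none, updated through a RefSeq gene table. The fit was tested on simulated data.

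The named genes were the 10 pathway members, and other genes of fixed lists where they passed the threshold in an antagonist contrast or bore on a member's result. The members and lists were chosen with earlier results of these data known. Alternatives covered background correction, scaling, detection filter, probe choice, blocks for replicate number, header set and slide (set 1 headers name none and formed 1 block), single header sets, the groups of a contrast alone, and each array left out. Precision is limited by having 5 arrays in each group.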

Additional observations from a re-analysis of the deposited data

Results flagged for a closer look

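The antagonist change of Me1 differed between genotypes by a test of the difference itself. Me1 fell by 0.74 in ApoE-/- livers and by 1.90 in wild-type livers on the log2 scale, a difference of 1.16, ApoE-/- minus wild type (limma adjusted p = 0.0253). In ApoE-/- livers 4 of 5 treated arrays, and in wild-type livers 5 of 5, lay below all untreated ones. None of the 44 sets of 5 arrays checked, 11 probes in 4 groups, held an array far from the others by Dixon's critical gap of 0.71 of the range.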

How the results depend on the processing

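Across 55 results of single probes and their alternatives, 1289 values in all, 1228 stayed on their side of the threshold, 35 lost a call and 26 gained one. Sign changes numbered 35, all in values with no call, over 14 results such as wild-type Acacb, ApoE-/- Thrsp and the Elovl6 difference between genotypes, and 0 in values with a call. In ApoE-/- livers the count of genes higher with antagonist, 1 in the report (Acly), was 2 without background correction, under equal medians, with the series matrix values, with detection on 10 or more arrays, with header set as a block, in set 1 alone and with the groups compared alone. It was 3 with slide as a block (the set 1 headers name no slide, so set 1 was taken as 1 block beside the slides named in set 2), 0 in set 2 alone, and 1 to 2 with single arrays left out, the lowest and highest; the gene added was Acacb, joined by Fasn with the slide block. The count of genes lower, 2, was 0 in set 2 alone, which has 2 arrays a group. For the difference between genotypes the count, 1 (Me1), was 0 under equal medians and without the detection filter, and 0 to 1 with arrays left out, lost without treated wild-type replicate 2, untreated ApoE-/- replicate 2 or untreated ApoE-/- replicate 3; in set 2 alone it stayed 1 but with Mlxipl in place of Me1. In untreated livers the count higher in ApoE-/-, 1 (Scd1), was 0 in set 1 alone. In treated livers the count lower in ApoE-/-, 1 (Acly), was 0 under equal medians, in either set alone and with the groups compared alone, and 0 to 1 with arrays left out, lost without treated ApoE-/- replicates 2, 3, 4 or 5 or treated wild-type replicates 1, 3 or 4. Fewer arrays enter the single sets; for the other losses the cause was not tested.

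Replicate numbers are not said to pair animals, so the main fit did not take them as pairs. Some same-numbered arrays were nevertheless alike. Before header set was removed, 15 of 20 arrays correlated best, among arrays of other groups, with one of their own number. Correlations of deviations between same-numbered arrays ran from 0.12 to 0.47 for number 1 and from -0.002 to 0.34 for number 2. They ran from 0.14 to 0.31, 0.23 to 0.40 and 0.22 to 0.35 for numbers 3, 4 and 5. With header set also removed they were 0.09 to 0.30 for number 1, -0.18 to 0.19 for number 2 and 0.15 to 0.40 for number 3. For numbers 4 and 5 they were -0.03 to 0.08. These last are a single result, because the 2 set 2 arrays of a group then have mirrored deviations. With the replicate number as a block the member counts were the same as in the report in each comparison, 1 higher and 2 lower in ApoE-/- livers and 1 higher and 4 lower in wild-type livers, while the second probes of Mlxipl in ApoE-/- and Elovl6 in wild-type livers passed (limma adjusted p = 0.0421 and 0.0254).

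Equal medians raised the share of calls that were higher to 66.0%, against 48.7%, in ApoE-/- livers and to 85.5%, against 50.6%, in wild-type livers. That share was 6.33% against 32.6% for the difference, 85.2% against 73.2% between untreated and 27.7% against 58.2% between treated genotypes. The shifts of the median of all probes were 0.08, 0.25, -0.18, 0.07 and -0.11 in the same order. Groups compared alone give no separate value for the difference, which needs all 4. Fasn, with a signal near background, and the undetected Acaca and Pnpla3 probes limit what can be said of those steps.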

Other observations

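The genes whose leading probe followed the Fasn probe most closely over the 20 arrays, by deviations from the group means and among 10354 named genes, were Ubxn6, Golga2, Syn3, F10 and Zfp219. Their Pearson correlations with Fasn were 0.85, 0.85, 0.83, 0.82 and 0.81. With the header set also removed they were 0.71, 0.50, 0.54, 0.52 and 0.65. The genes were picked as the highest of 10354, so these values are partly raised by that choice, and they were not tested. The points share arrays and the header sets, and Fasn was detected on 12 of them.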
